A study of Mus musculus with 31 samples.

Results

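Immediate early genes and inducible heat shock genes are described here in single cells of the mouse lung that were sorted as macrophages. The set was chosen by name and holds 10 genes of the 47069 in the deposited tables: Fos, Fosb, Jun, Junb, Jund, Egr1, Atf3, Hspa1a, Hspa1b and Dnajb1. The cells came from the right lung lobes of 10-week-old adult Csf1r-GFP mice, in which a green fluorescent reporter follows the gene for the CSF1 receptor, and were taken 7 days after sham surgery in which only the chest cavity was opened. Cells were sorted as CD45+, CSF1R-GFP+ and F4/80+ macrophages, with Ly6G listed in the gate without a sign, and were captured 1 by 1 on a microfluidic chip for full-length polyA RNA sequencing. All 31 cells form 1 group with no animal named and no second condition analysed here, so the cells are not replicates of a condition and no p-value is given.

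Immediate early genes are transcribed within minutes of a signal, without new protein synthesis. Fos, Fosb, Jun, Junb and Jund encode the leucine zipper proteins that pair to form the AP-1 transcription factor, Atf3 encodes a stress-responsive leucine zipper factor of the ATF/CREB family, and Egr1 encodes a zinc finger factor induced through serum response factor. Hspa1a and Hspa1b encode the inducible HSP70 chaperone and Dnajb1 encodes an HSP40 co-chaperone that stimulates it, and heat shock factor 1 switches on all 3 when proteins misfold. In macrophages these genes respond to microbial products, growth factors, heat and cell handling.

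The stretches of 250 bases before an annotated RefSeq start of 5 of these genes are shown for 2 immediate early genes and the 3 heat shock genes, in part because Hspa1a and Hspa1b are nearly the same there. For Atf3 that start lies inside the gene, whose span given below reaches chr1:191218039 on the minus strand. They are RefSeq sequences on GRCm38.p6, written 5′ to 3′ on the strand of the gene, for Fos at chr12:85473640-85473889 (plus), Atf3 at chr1:191183334-191183583 (minus), Hspa1a at chr17:34972157-34972406 (minus), Hspa1b at chr17:34959239-34959488 (minus) and Dnajb1 at chr8:83607925-83608174 (plus). Capitals mark, in every window and on either strand, the heat shock element GAANNTTC, the cAMP response core TGACG, the TATA box TATAAA and the CCAAT box, which reads ATTGG on the other strand.
Fos: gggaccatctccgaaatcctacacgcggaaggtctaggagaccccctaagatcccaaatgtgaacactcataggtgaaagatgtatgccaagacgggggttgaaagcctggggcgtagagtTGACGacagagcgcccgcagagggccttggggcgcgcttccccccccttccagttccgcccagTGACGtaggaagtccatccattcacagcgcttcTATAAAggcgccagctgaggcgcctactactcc
Atf3: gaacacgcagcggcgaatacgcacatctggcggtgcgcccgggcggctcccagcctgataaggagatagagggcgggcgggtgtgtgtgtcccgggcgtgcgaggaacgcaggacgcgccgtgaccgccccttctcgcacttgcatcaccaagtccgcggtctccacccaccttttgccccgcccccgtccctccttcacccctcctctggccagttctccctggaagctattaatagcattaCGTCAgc
Hspa1a: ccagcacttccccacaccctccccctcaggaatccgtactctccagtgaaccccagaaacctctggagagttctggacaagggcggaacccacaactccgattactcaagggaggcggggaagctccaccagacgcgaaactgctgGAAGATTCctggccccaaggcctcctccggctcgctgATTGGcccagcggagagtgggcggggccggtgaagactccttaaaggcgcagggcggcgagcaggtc
Hspa1b: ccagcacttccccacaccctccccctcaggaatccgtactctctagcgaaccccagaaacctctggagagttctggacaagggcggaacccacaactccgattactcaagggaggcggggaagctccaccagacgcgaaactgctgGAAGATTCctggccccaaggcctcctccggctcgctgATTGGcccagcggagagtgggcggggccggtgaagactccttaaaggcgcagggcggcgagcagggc
Dnajb1: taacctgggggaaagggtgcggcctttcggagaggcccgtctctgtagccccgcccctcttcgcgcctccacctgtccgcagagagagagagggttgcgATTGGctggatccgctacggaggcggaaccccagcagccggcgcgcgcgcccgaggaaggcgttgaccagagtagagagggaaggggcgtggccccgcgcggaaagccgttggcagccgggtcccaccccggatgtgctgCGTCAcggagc

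RefSeq windows were matched for 9 of the 10 genes, with 10 windows because Dnajb1 has more than 1 start. Both strands were searched. The heat shock element, GAANNTTC or TTCNNGAA, was in the windows of Hspa1a, Hspa1b and Jun, and in 12.8% of all 32851 windows of that length. In Hspa1a and Hspa1b it lay 104 to 97 bases before the start, and the 250 bases differed at 3 positions. The core TGACG was in the windows of Atf3, Dnajb1, Fos, Fosb and Junb and in 17.8% of all windows, while the full cAMP response element TGACGTCA, which contains it, was in none of the 10 and in 1.55% of all. TATAAA was in the Fos window alone among the 10 and in 12.4% of all. CCAAT was in the windows of Dnajb1, Hspa1a, Hspa1b, Jun and Junb and in 33.9% of all. The AP-1 site, TGACTCA or TGAGTCA, and the CArG box that serum response factor binds were in none of the 10 windows, against 4.46% and 1.47% of all windows. Egr1 and Jund were not among the genes with a match to these motifs, but 1 of them had no window and was not searched. Bases farther than 250 before the start were not searched. None of these motifs divided the immediate early genes from the heat shock genes. The matches describe letters and not bound sites.

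Levels are FPKM, fragments scaled to transcript length and to the library total, and presence means FPKM of at least 1. Each share of cells has an exact 95% interval (Clopper-Pearson) that reflects only the number of cells counted. Total expected counts per cell ran from 120835 to 4059833, with a median of 1072993. In 10 libraries only 32.8% to 61.6% of counts fell on nuclear protein-coding genes. Lyz2, the lysozyme gene of monocytes and macrophages, reached FPKM 1000 in 20 cells, all of them outside those 10, and Csf1r was present in all 20. The cells nearest that limit were C7 at 1229 inside it and D10 at 553 outside it. The remaining cell, F11, had a well-covered library but Lyz2 at 0. Members per cell are therefore given for all 31 cells and for the 20 cells with high Lyz2, and most other values for the 20. Of 10 alveolar macrophage markers 7, among them Siglecf, Marco, Car4 and Pparg, were absent from all 20, while Chil3 was present in 12, Itgax in 3 and Ear1 in 1.

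Fos, Junb, Jund and Atf3 were the members found in most of the 20 cells with high Lyz2, and Jun was found in a smaller majority. Fosb, Egr1 and the heat shock genes were absent from most of these cells. With these 20 cells as the base, 5 of the 10 members were present in at least 50% of cells, beside 3.04% of all 47069 genes. The number of members present per cell had a median of 5 both in the 20 cells, where it ran from 2 to 10, and in all 31, where it ran from 0 to 10. Together the 10 genes took 0.00662% to 4.47% of a cell's counts in the 20 cells, with a median of 0.336%.

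**Figure D1:**
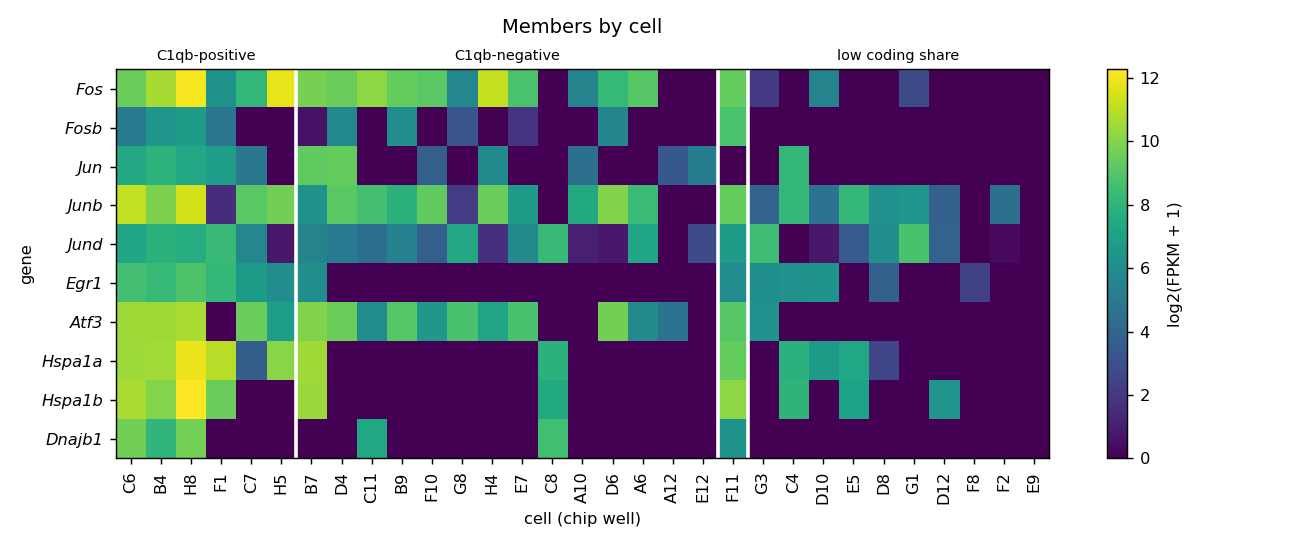
FPKM of each of the 10 genes (rows) in each of the 31 cells (columns), colored by log2(FPKM + 1). White lines separate the cells with high Lyz2 and C1qb, those with high Lyz2 and no C1qb, cell F11, and the 10 libraries with few coding counts. Fos, Junb and Atf3 fill most of the cells with high Lyz2, the heat shock genes are concentrated in few, and Junb is present in 8 of the 10 libraries with few coding counts.

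Fos (ENSMUSG00000021250, GRCm38 chr12:85473890-85477273, plus strand) was present in 17 of the 20 cells, or 85.0% with an interval of 62.1% to 96.8%. Its lowest level in the 20 was 0, its median 552 and its highest 4445, in cell H8. Cells H5 at 3664 and H4 at 2353 came next, and A12, C8 and E12 had none. Fosb (ENSMUSG00000003545, chr7:19302696-19310051, minus strand), whose protein also pairs with Jun proteins, was lower, with a median of 0.27 and a highest level of 106 in the same cell H8. It was present in 9 of the 20 cells, and its highest level in any cell was 439 in F11. In the 10 libraries with few coding counts Fos was present in 3 cells at up to 43.9 and Fosb in 0 of 10, for which the exact interval reaches 30.9%.

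Junb (ENSMUSG00000052837, chr8:84974484-84978718, minus strand), an AP-1 subunit often reported to restrain Jun, was present in 26 of 31 cells, against 23 for Jund, although at an expected count of 1 or more Jund was in 27 and Junb in 26. In the 20 cells it was present in 17, with a lowest level of 0, a median of 363 and a highest of 2843 in H8. It was also present in 8 of the 10 libraries with few coding counts, at up to 293. Jund (ENSMUSG00000071076, chr8:70698949-70700616, plus strand), generally the most constitutive Jun gene, was present in 17 of the 20 cells with a median of 42.5 and a highest level of 313 in C8. Jun itself (ENSMUSG00000052684, chr4:95049034-95052222, minus strand) was present in 12 of the 20, with a median of 17.3, and D4 at 671 and B7 at 622 stood above the next cell, B4 at 244.

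Reads were not stranded, so reads from a stretch where a gene overlaps a member on the other strand carry no mark of which gene they came from. Gm11175 is antisense to Jund over 919 bases and was present in 10 of the 20 cells, Prdx2 overlaps Junb over 351 bases and was present in 12, and Junos overlaps Jun over 689 bases and was present in 1. Gm20481 overlaps Hspa1a over 2225 bases and was present in 3 of the 31 cells at up to 42.6 FPKM. Expected counts of Jund were fractional in 11 of the 31 cells, as RSEM writes when it divides reads between genes, whereas those of Jun, Junb and Atf3 were whole in every cell to within 0.001.

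Atf3 (ENSMUSG00000026628, chr1:191170296-191218039, minus strand) was present in 16 of the 20 cells, or 80.0% with an interval of 56.3% to 94.3%. Its lowest level was 0, its median 284 and its highest 1667 in H8, and C6 at 1499, B4 at 1479 and B7 at 1000 followed. It was present in 1 of the 10 libraries with few coding counts, at 72.7 in G3.

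Egr1 (ENSMUSG00000038418, chr18:34859823-34864984, plus strand) was present in fewer of these cells, 7 of 20, or 35.0% with an interval of 15.4% to 59.2%. Its levels there were 465 in H8, 385 in C6, 301 in B4, 291 in F1, 101 in C7, 65.6 in B7 and 64.1 in H5, and the other 13 cells were at 0. All 7 also held Fos and Junb, each of which was present in 17 of the 20 cells. Egr1 was present in 5 of the 10 libraries with few coding counts as well, at 4.40 to 80.6.

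Hspa1a (ENSMUSG00000091971, chr17:34969190-34972156, minus strand) and Hspa1b (ENSMUSG00000090877, chr17:34956436-34959238, minus strand) are neighbouring copies whose reads are shared. Their transcripts of 2967 and 2803 bases were identical at 2514 of 2771 aligned bases, and 58.8% of all stretches of 50 bases in Hspa1a also occurred in Hspa1b. The split between them is therefore uncertain and their sum is the safer value. The sum was present in 8 of the 20 cells, with a median of 0 and a highest level of 8846 in H8, where both genes together took 2.38% of all counts. Hspa1a was present in those 8 cells at 3876 in H8, 1992 in F1, 1514 in B4, 1460 in B7, 1425 in C6, 1104 in H5, 236 in C8 and 11.3 in C7. Hspa1b was present in 6 of them and was at 0 in H5 and C7, although H5 held 12342 expected counts for the pair. In the cells of the 31 where both genes had counts, Hspa1a took from 37.5% of the pair's counts in F11 to 74.9% in F1. The sum was present in 14 of the 31 cells, among them 5 of the 10 libraries with few coding counts, at up to 486 there.

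**Figure D2:**
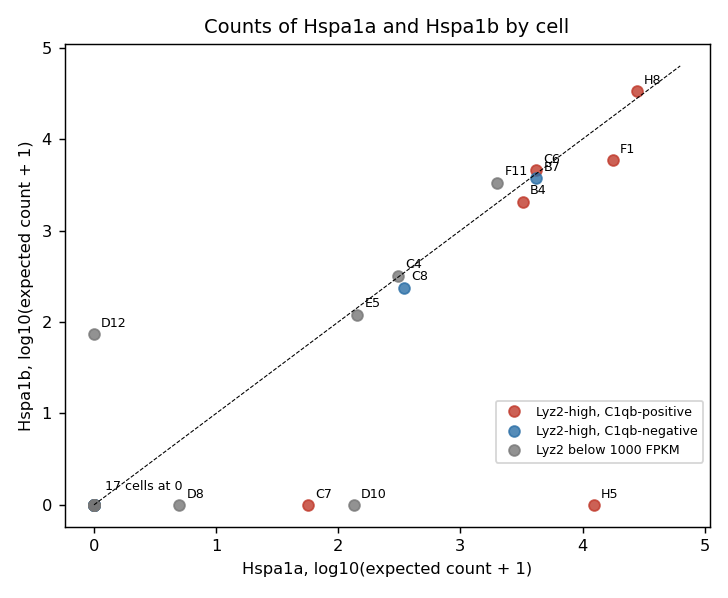
Expected counts of Hspa1a (x axis) and Hspa1b (y axis), both as log10(count + 1), in the 31 cells, each point 1 cell colored by Lyz2 and C1qb, with a dashed line at equal counts. Counts are divided between both genes in 9 cells, while H5, C7, D10 and D8 have Hspa1a alone and D12 has Hspa1b alone.

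Dnajb1 (ENSMUSG00000005483, chr8:83608193-83612653, plus strand) was present in 5 of the 20 cells, a share with an interval of 8.66% to 49.1%. Its levels were 827 in H8, 807 in C6, 371 in C8, 266 in B4 and 163 in C11, and the other 15 cells were at 0. In 4 of the 5 it stood with both Hspa1 genes, and in C11 it stood without either.

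Several members were present in the same cells. In the 20 cells Fos and Junb were present in exactly the same 17 cells, with a Spearman correlation of FPKM over the 20 cells of 0.75. That match depended on the threshold, as Junb was only at 1.90 in F1 and 3.35 in G8. At FPKM 5 or more Fos was present in 17 cells and Junb in 15, and they shared 15. Fos and Atf3 shared 15 cells, which is 88.2% of the Fos cells and 93.8% of the Atf3 cells. Over all 20 cells Atf3 was present in 80.0% and Fos in 85.0%, so these shares lay near the base shares. All 9 cells with Fosb held Fos and Junb, each of which was present in 85.0% of the 20. Egr1 and Hspa1a shared 7 cells, all of the Egr1 cells and 87.5% of the Hspa1a cells, with a correlation of 0.92. Over all 20 cells Hspa1a was present in 40.0% and Egr1 in 35.0%. The correlations of Jund were 0.02 with Fos and -0.05 with Junb, but 0.65 with Hspa1b, 0.57 with Hspa1a, 0.53 with Dnajb1 and 0.47 with Egr1. Over the 45 pairs of members the median correlation was 0.431, and 33.3% of pairs lay above 0.5. Among the 5 members present in at least 10 of the 20 cells, which leaves out Fosb, Egr1 and the heat shock genes, the median was 0.264. Over all 6820971 pairs of the 3694 genes present in at least 5 of these cells the median was 0.00758, and 1.81% lay above 0.5. The cells share 1 chip and differ in depth, so these correlations are descriptions.

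**Figure D3:**
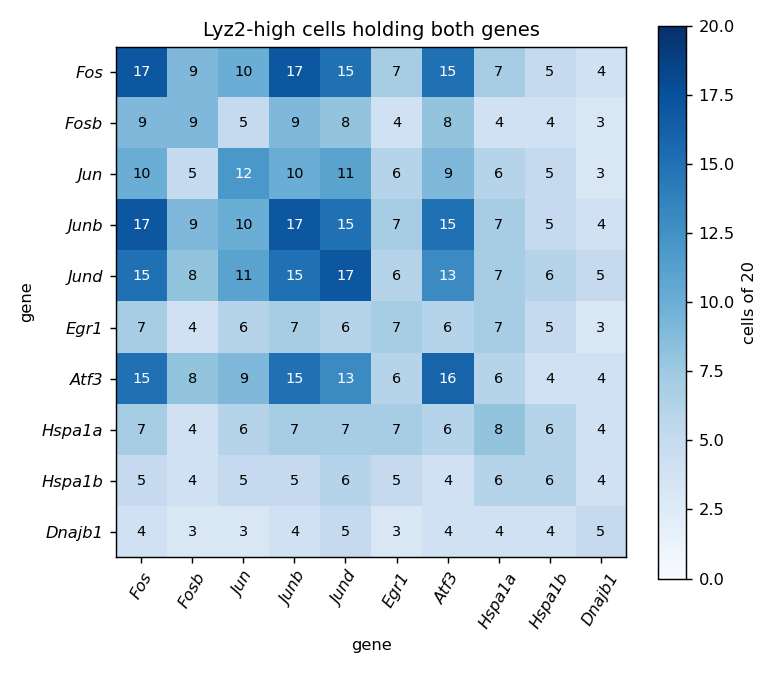
Number of the 20 cells with high Lyz2 that hold both genes of each pair, with each gene's own count on the diagonal. Fos and Junb share 17 cells, and Egr1 shares 7 cells with Hspa1a.

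All 10 genes were present together in B4, C6 and H8, 8 in B7 and F1, and 2 in A12 and E12. F11, the cell with no Lyz2, held 9 and lacked only Jun. Cell C8 had Hspa1a at 236, Hspa1b at 173 and Dnajb1 at 371 but Jund, at 313, was its only immediate early member.

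Cells with C1qb, a complement gene that marks interstitial macrophages of the lung, held Egr1 and the Hspa1 genes more often than the other cells with high Lyz2. At FPKM 1 or more, 6 of these 20 held C1qb and 14 did not. Egr1 was present in 6 of 6 against 1 of 14, Hspa1a in 6 of 6 against 2 of 14 and Hspa1b in 4 of 6 against 2 of 14. These 3 of the 10 members were present at least 50 percentage points more often in the cells with C1qb, beside 3.31% of the 5741 genes present in at least 3 of the 20 cells. None of the 10 was at least 50 points less often present, beside 2.51% of those genes. The median difference over the 10 members was 32.1 points, against 2.38 points over all genes tested. The Hspa1a and Hspa1b calls share reads, and their sum was present in 6 of 6 against 2 of 14 cells, a difference of 85.7 points. Without any 1 of B4, C6, F1 or H8 the Hspa1b difference was 45.7 points and the count was 2 of 10, and without H5 the count was 4. Outside the 20, F11 held C1qb, Egr1 and both Hspa1 genes. The 10 libraries with few coding counts all had C1qb at 0, and Egr1 and the Hspa1 sum were each present in 5 of them.

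The levels of all 10 genes overlapped between the 2 sets of cells. For Egr1 the overlap was narrow, since its lowest level with C1qb was 64.1 and its highest without was 65.6, in B7. Hspa1a had a median of 1469 with C1qb and 0 without, with B7 at 1460 among the latter. Dnajb1 was present in 3 of 6 against 2 of 14 cells. Fos was present in 6 of 6 against 11 of 14 with medians of 1176 and 497, Junb in the same numbers of cells with medians of 876 and 205, and Atf3 in 5 of 6 against 11 of 14 with medians of 1094 and 117. Fosb was present in 4 of 6 against 5 of 14 cells, Jun in 5 of 6 against 7 of 14 and Jund in 5 of 6 against 12 of 14.

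**Figure D4:**
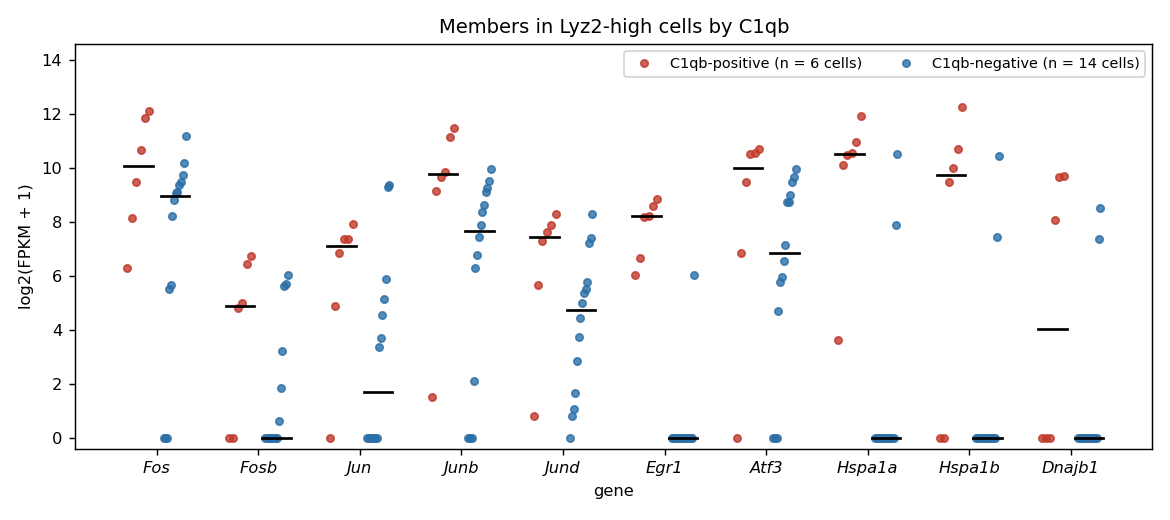
FPKM of each gene in the 20 cells with high Lyz2, split into 6 cells with C1qb and 14 without, each point 1 cell on a log2(FPKM + 1) axis, with bars at the median of the log2 values. Egr1 and Hspa1a are present in all 6 cells with C1qb and in 1 and 2 of the other 14.

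Other features moved with C1qb in the same cells, and their part in these differences was not tested. Total counts ran from 767318 to 4059833 with C1qb, with a median of 2177838.5, and from 521492 to 3526674 without, with a median of 1433691. Genes present per cell had medians of 2446 and 2415. With every cell thinned to 120829 counts, Egr1, Hspa1a and Hspa1b kept their differences of 92.9, 85.7 and 52.4 points. Of the interstitial macrophage list, which includes C1qb itself, 6 of 7 genes tested were at least 50 points more often present with C1qb. The share over all genes tested was 3.31%. The list has 10 genes, and those not tested were present in too few cells. Lyve1 was absent from all 20, Folr2 was present in 1 of 6 against 0 of 14, and Stab1 in 1 of 6 against 1 of 14. The summed FPKM of that list ran from 12948 to 68239 with C1qb against 0 to 5422 without. Of the classical monocyte list 7 of 10 genes were at least 50 points less often present, beside 2.51% of all genes tested. Its sums were 8.68 to 811 against 1238 to 26710. The dendritic cell list summed to 2203 to 122079 against 0 to 60286, carried by H2-Aa, H2-Ab1 and Cd74, while Zbtb46, Clec9a, Cd209a, Ccr7 and Siglech were absent from all 20. The lymphocyte list summed to 345 to 1045 against 0 to 508. It was carried by Ighm, the immunoglobulin heavy chain gene of B cells, which was present in 6 of 6 against 1 of 14 cells, while Cd3e, Cd3d, Trac, Cd79a, Ncr1, Nkg7, Klrd1 and Gzma were absent from all 20. The B cell genes Cd79b and Ms4a1 were each present in 1 of the cells with C1qb, at 97.5 and 54.6, and in none without. The neutrophil list summed to 0 to 191 against 1.69 to 1768, with S100a9, Retnlg, Ltf, Lcn2 and Camp absent. Ly6g, whose protein the gate lists without a sign, was present in 0 of 6 cells with C1qb and 7 of 14 without, at up to 115. Of the other neutrophil markers Cxcr2 was present in 10 of the 20 cells, Csf3r in 9, Mmp8 in 4 and S100a8 in 3. Cxcr2 had a median of 0.795 and a highest level of 9.74, and Csf3r a median of 0.455 and a highest level of 189. In the 10 libraries with few coding counts Cxcr2 was present in 10 and Csf3r in 9. The nonclassical monocyte list summed to 2.65 to 1334 against 58.8 to 8154, and the alveolar list to 0 to 267 against 0 to 12025, of which Chil3 is also a classical monocyte marker. All 9 pan-myeloid markers were present in at least 50% of the 20 cells, beside 3.04% of all genes. The structural cell list summed to at most 0.68 against at most 120.

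Of 24 other immediate early genes 14 were present in at least 50% of the 20 cells, beside 3.04% of all genes. Nfkbia, the inhibitor of NF-kappa B, Dusp1, a phosphatase of MAP kinases, Zfp36, which destabilizes cytokine mRNAs, and the antiproliferative Btg1 were present in 20 of 20, with median FPKM of 2368, 753, 652 and 371. Fosl1 and Egr3 were absent. Of 21 genes tested, the antiproliferative Btg2 was at least 50 points more often present in the cells with C1qb, in 6 of 6 against 6 of 14, beside the 3.31% of all genes. Dusp5, another MAP kinase phosphatase, in 0 of 6 against 8 of 14, and the small Maf gene Mafk, in 0 of 6 against 7 of 14, were at least 50 points less often present, beside the 2.51% of all genes. The median difference over the 21 was 0.

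Of 22 other chaperone genes 9 were present in at least 50% of the 20 cells, beside 3.04% of all genes. The constitutive HSP70 gene Hspa8 was present in all 20 with a median of 1500, Hsp90ab1 in 19 with 352, Hsp90aa1 in 18 with 468 and Hspa5, the chaperone of the endoplasmic reticulum, in 18 with 375. Hspa1l, Hspb1 and Cryab were absent. Of 18 tested 1 was at least 50 points more often present with C1qb and 0 less often, with a median difference of 4.76 points. The shares over all genes tested were 3.31% and 2.51%, and a count of 1 of 18 does not set the list apart from them. The 1 was Hspe1, the mitochondrial HSP10 gene, in 6 of 6 against 7 of 14 cells. The summed FPKM of the 22 genes ran from 3309 to 8930 with C1qb, with a median of 7477, and from 2341 to 7518 without, with a median of 3354, so the ranges overlapped. Of 14 upstream factors, Atf4 alone was present in at least 50% of cells, in 13, beside 3.04% of all genes. Mapk14 was present in 9, Creb1 in 7, Elk3 in 6 and Elk1 in none, and 0 of 8 tested differed by 50 points in either direction. Of 10 leucine zipper genes, Cebpb was present in 20 cells with a median of 644, Nfe2l2 in 17 with 345 and Bach1 in 5. Of 8 tested 0 were at least 50 points more often present with C1qb, beside 3.31% of all genes, and 1 less often, beside 2.51%.

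The 3 genes most like each member, by Spearman correlation over the 20 cells among genes present in at least 5 of them, were often other members. For Fos they were Junb at 0.75, Rtl8a at 0.71 and Anxa3 at 0.66, and for Junb they were Fos, 1810022K09Rik at 0.72 and Atf3 at 0.70. For Atf3 they were Irf8, an interferon regulatory factor of myeloid cells, at 0.72, Fosb at 0.71 and Junb, and for Fosb they were Chd2 at 0.81, Atf3 and Tmcc3 at 0.71. For Egr1 they were Hspa1a at 0.92, Cd72 at 0.91 and Cd81 at 0.90, for Hspa1a they were Egr1, Hspa1b at 0.88 and C1qc at 0.84, and for Hspa1b they were Hspa1a, Egr1 at 0.79 and Ppt1 at 0.77. For Dnajb1 they were Rbm5 at 0.81, Hpgd at 0.76 and Hspa1b at 0.70. For Jun they were Gm16279 at 0.72, Pon2 at 0.71 and Tox4 at 0.70. For Jund they were its overlapping antisense gene Gm11175 at 0.81, Med1 at 0.70 and Fubp1 at 0.67.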

How the data were processed

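Single cells were captured on a Fluidigm C1 chip, with SMARTer amplification of cDNA and Nextera XT libraries, per the labels' protocols. The authors deposited RSEM expected counts and FPKM per gene for all cells in tables of the whole series; CASAVA 1.8, Trimmomatic, RSEM and the build GRCm38 are named in the submitters' processing notes. For settings, annotation release and aligner, nothing is stated in the labels or headers. Another 44 columns matched no sample and were not used.

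The 31 cells were taken as 1 sample. Presence, shares, Spearman correlations and differences were computed from the deposited FPKM with Python 3.11.15, pandas 2.3.3 and scipy 1.17.1, and count shares and thinning from the deposited expected counts. Genes with no symbol held 0.274% of counts. The highest Pearson correlation between cells was 0.574 on log2(count + 1), so no library was taken as deposited more than once. No doublet caller was run. Gene positions are from GENCODE M21. The calculations were tested on simulated data.

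The 10 members and the 13 lists of 161 genes were chosen with earlier results of these data known. Named genes were all members, the 4 genes of each pathway list present in most cells with high Lyz2 and those present in none, and the 3 genes most like each member. Some genes the rule names are not reported here. Marker genes, B7 and C8 were named after their values were seen. Alternatives were the presence threshold, the Lyz2 and C1qb limits, counts in place of FPKM, equal depth, library quality, other correlation measures and leaving out each cell.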

Additional observations from a re-analysis of the deposited data

How the results depend on the processing

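Settings were changed 1 at a time for the members per cell, the shared cells, the median correlation and the number of members at least 50 points more often present with C1qb. No value reversed, and 70 of 71 such values from settings other than leaving out a cell stayed within 1.5 times of the reported count, on the same side of 50 points, or, for the correlations, within the SD of 0.206 over pairs. That SD is wide, and the median correlation over member pairs was 0.264 among genes present in at least 10 cells. The value outside these limits was the median correlation, 0.2 in the cells without C1qb alone, a setting chosen after seeing the data, against 0.431 in the 20 cells. Leaving out each cell in turn, also added after seeing the data, gave 0.332 to 0.464 for that median, with the lowest without H8, 16 to 17 cells with Fos and Junb, 14 to 15 with Fos and Atf3, 6 to 7 with Egr1 and Hspa1a, and 2 to 4 members at least 50 points more often present with C1qb. At FPKM 50 or more the low genes lost cells: of the 20, Fosb was present in 4, Jun in 7 and Jund in 8. In the shallowest library, absence of a gene was not told apart from too few reads. No paired analysis was possible because the cells form 1 group.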
